A study of Caenorhabditis elegans with 25 samples.

Results

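The 10 genes described here encode collagens of the nematode cuticle whose mutants are squat (sqt), roll (rol), blister (bli) or are short and stout (dpy). They are sqt-1, sqt-2, sqt-3, rol-6, rol-8, bli-1, bli-2, bli-6, dpy-13 and dpy-17, chosen by name out of 42532 genes in the count table, and the collagens that pattern the annular furrows were set apart. RNA came from whole day 1 adult Caenorhabditis elegans, with 500 to 600 animals per sample, and poly(A) libraries were sequenced for 5 genotypes with 5 replicates each. N2 is the wild type. The flp-17(lof) animals (AEF243) carry flp-17(n4894) on chromosome IV, and the egl-6(lof) animals (AEF236) carry egl-6(n4537) on X. The flp-17oe animals (AEF148) carry the extrachromosomal array ssrEx1193, which holds flp-17p::flp-17::GFP and myo-3p:mCherry, and the flp-17oe egl-6(lof) animals (AEF237) carry both that array and egl-6(n4537) and are called the double genotype here. Mutant strains had been outcrossed 6 times, and all animals were fed OP50-1 bacteria. Replicate 1 of every genotype belongs to batch 1 and replicates 2 to 5 to batch 2.

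The array genotypes have a limit as a model. Array animals were sorted by fluorescence on a large particle sorter 24 h before collection, whereas the others were only washed and moved to new plates, and no genotype carries an array without flp-17. Differences due to the array, its muscle-promoter mCherry marker and the sorting therefore cannot be told apart. An extrachromosomal array is also passed on to only some of the progeny. Nothing in the labels says that replicates were grown independently, so p-values measure the spread between these samples.

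As background, the cuticle is secreted by the epidermis and is rebuilt at every molt, when cuticle collagen genes are transcribed in successive waves. Collagen chains are hydroxylated, trimmed by proteases, assembled into triple helices and cross-linked outside the cell. SQT-1, ROL-6 and SQT-2 interact genetically in setting body shape, DPY-17 acts together with SQT-3, and BLI-1, BLI-2 and BLI-6 belong to the struts that join the cortical and basal layers of the adult cuticle. FLP-17 is a neuropeptide known for release from the BAG sensory neurons, and EGL-6 is its G protein-coupled receptor, known for inhibiting egg laying through the HSN motor neurons.

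The libraries held between 25164923 and 99717657 counts. Library 1 of flp-17(lof) stood apart, with the lowest total and a TMM scaling factor of 0.740 against 0.981 to 1.046 in the other 24 libraries. The targeted genes checked the labels: flp-17 was at 3.88 to 5.07 CPM (reads scaled to library size) in N2, 0.243 to 0.376 in flp-17(lof), and 160.5 to 226.5 in flp-17oe. The egl-6 gene was at 5.39 to 6.91 CPM in N2 and at 2.25 to 3.46 in egl-6(lof). Of the 10 collagen genes, 9 passed the filter on low counts and were tested among 14634 genes, and bli-2 did not pass. A gene is called higher or lower here when its Benjamini-Hochberg adjusted p, from edgeR's quasi-likelihood test over all 25 libraries with batch as a term, is under 0.05.

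In the annotation of genome build ce11, 6 of the 10 genes lie on chromosome II. These are sqt-2 (II:23325-24458, plus strand), bli-2 (II:5651394-5652434, minus), rol-8 (II:7544108-7545335, plus), rol-6 (II:8733050-8734239, plus), bli-1 (II:10708960-10712156, plus) and sqt-1 (II:11336693-11337837, minus). The others are dpy-17 (III:5107330-5108492, plus), dpy-13 (IV:4235614-4236710, plus), bli-6 (IV:6377065-6378168, plus) and sqt-3 (V:12352745-12354320, plus). All are protein-coding and compact, with 989 to 1422 exon bases, apart from bli-1 with 3010. An exon of bli-1 overlaps the gene dph-2 on the opposite strand, which was at 29.4 to 42.4 CPM, so reads counted for bli-1 could not be separated from those of dph-2 if strand was not used. The antisense gene over sqt-3, F23H12.13, was at most at 0.0152 CPM.

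In N2 adults these collagens differed widely in level. Per kilobase of exon, dpy-17 was highest at 11.9 ± 2.58 CPM per kb (SD, n = 5), followed by sqt-3 at 6.23 ± 1.2 and bli-6 at 3.55 ± 1.64. Next came dpy-13 at 1.12 ± 1.29 CPM per kb and rol-8 at 0.315 ± 0.229, then sqt-2 at 0.256 ± 0.22, sqt-1 at 0.254 ± 0.298 and rol-6 at 0.177 ± 0.171. The strut collagens bli-1 and bli-2 were lowest, at 0.0794 ± 0.0131 and 0.0571 ± 0.0601 CPM per kb. Only dpy-17 and sqt-3 were separated in this order, and every later pair of neighbours overlapped between libraries. Together dpy-17 and sqt-3 held most of the summed level per kb of the 10 genes in N2, with shares of 50.2% ± 4.12 and 26.8%.

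**Figure D1:**
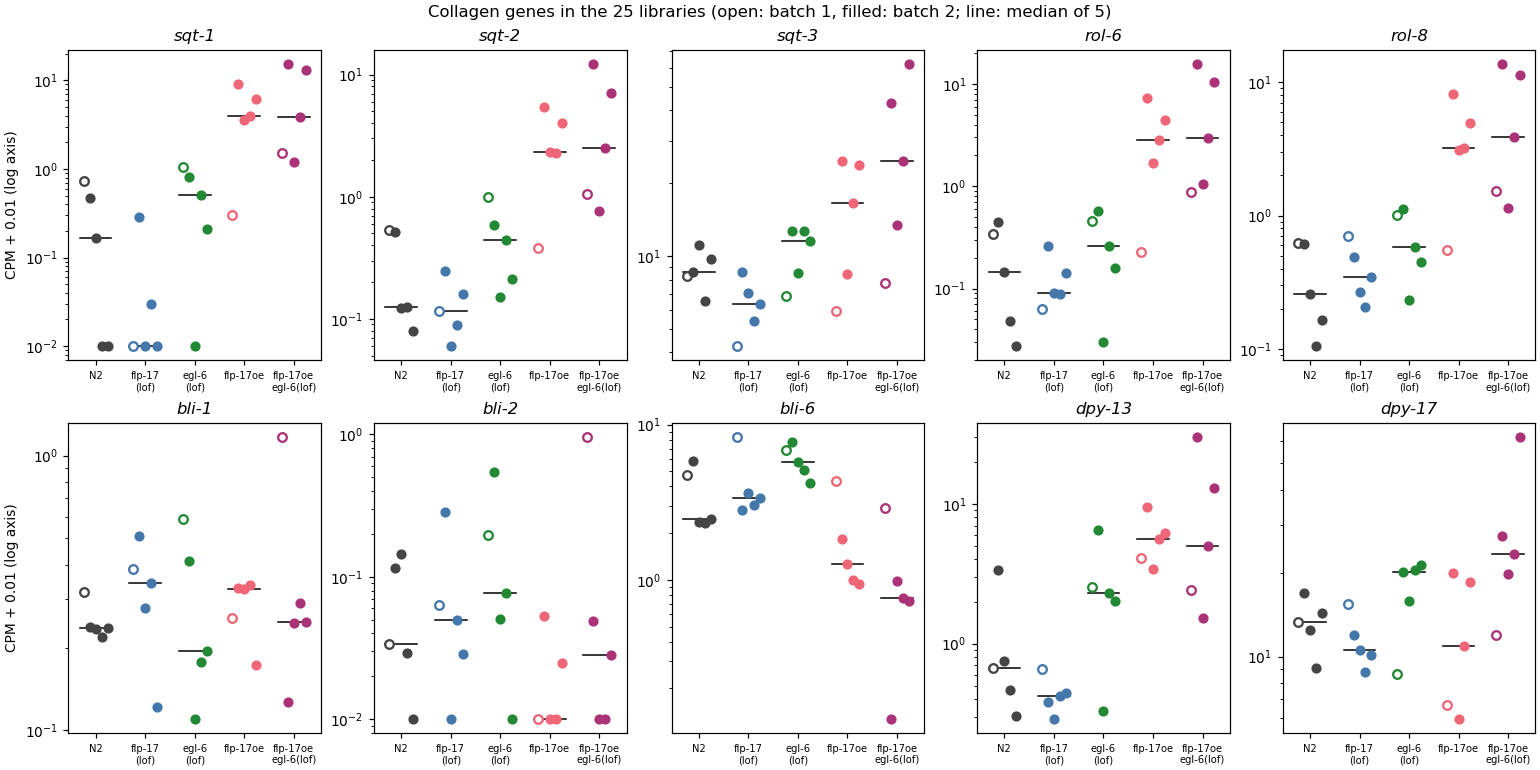
Level of each of the 10 collagen genes in the 25 libraries, in CPM plus 0.01 on a log axis with its own range per gene, by genotype. Open circles are batch 1, filled circles batch 2, and the line is the median of 5 libraries. The sqt-1, sqt-2, rol-6 and rol-8 panels share a shape in which batch 2 libraries with the array lie above N2 and the batch 1 library of flp-17oe does not.

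The question of what the flp-17 array and its sorting change was addressed by flp-17oe against N2. The collagen genes sqt-1, sqt-2, rol-6, rol-8 and dpy-13 were higher, 5 of the 9 tested, and 0 were lower. Over all genes tested, 4.78% were higher and 2.18% lower. The median log2 difference of the 9 genes was 2.35, beside 0 over all genes tested.

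The roller gene rol-6, a dominant allele of which is a common transformation marker, was at 0.332, 0.440, 0.135, 0.038 and 0.0174 CPM in N2 replicates 1 to 5. In flp-17oe it was at 0.215, 7.30, 1.68, 2.82 and 4.43 CPM. The 4 batch 2 libraries of flp-17oe all lay above every N2 library, and replicate 1 lay among the N2 values, so the groups overlapped. The fitted log2 difference was 3.87 (SE 0.89, edgeR adjusted p = 0.00854), and the means differed 17.1-fold.

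The squat and roller gene sqt-1 was at 0.712, 0.456, 0.157, 0 and 0 CPM in N2 and at 0.292, 9.11, 3.60, 3.98 and 6.14 CPM in flp-17oe. Here too replicate 1 of flp-17oe fell within the N2 range and the other 4 lay above it. Its log2 difference of 4.01 (SE 1.01, edgeR adjusted p = 0.0158) rested on at most 30 reads per N2 library. Without N2 replicate 4 or 5, in each of which no read was counted, sqt-1 was no longer called (adjusted p = 0.0516 and 0.0514).

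For sqt-2, whose product acts with SQT-1 and ROL-6, N2 libraries held 0.522, 0.501, 0.112, 0.114 and 0.0695 CPM and flp-17oe libraries 0.369, 5.47, 2.33, 2.25 and 3.97. The log2 difference was 3.33 (SE 0.80, edgeR adjusted p = 0.0114). The roller collagen rol-8 went from 0.617, 0.607, 0.247, 0.0949 and 0.156 CPM to 0.538, 8.09, 3.11, 3.21 and 4.91 (log2 difference 3.41, SE 0.74, edgeR adjusted p = 0.00511). Both genes repeated the arrangement of rol-6, with replicate 1 of flp-17oe inside the N2 range, replicate 2 highest and replicate 5 next.

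The dumpy collagen dpy-13 was at 0.664, 3.37, 0.740, 0.456 and 0.295 CPM in N2 and at 4.06, 9.43, 3.42, 5.62 and 6.15 CPM in flp-17oe. It was the only one of the 9 whose groups did not overlap in this comparison, a pattern seen in 4.98% of all genes tested toward higher values. The lowest flp-17oe value lay just above the highest N2 value. Its log2 difference was 2.35 (SE 0.72, edgeR adjusted p = 0.0488). This call stood closest to the threshold and was made in only 10 of the 25 fits that each left out 1 library, with log2 differences from 2.11 to 3.41 (the highest without N2 replicate 2). It was not made without the count filter (adjusted p = 0.109), with the stricter filter (0.0504), without the batch term (0.0642) or in batch 2 alone (0.111).

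The remaining members were not called in flp-17oe against N2. The strut collagen bli-6 pointed the other way, from 4.72, 5.83, 2.36, 2.32 and 2.47 CPM in N2 to 4.34, 1.83, 1.25, 0.984 and 0.934 in flp-17oe (log2 difference −1.12, SE 0.35, edgeR adjusted p = 0.0588). All 4 batch 2 libraries of flp-17oe lay below every N2 library, and replicate 1 did not. DESeq2 called it lower (log2 difference −1.15, adjusted p = 0.0211), as did the edgeR fit of batch 2 alone (−1.40, adjusted p = 0.0189). The cuticle collagen sqt-3 had a log2 difference of 0.72 (SE 0.35, edgeR adjusted p = 0.241), dpy-17 of −0.14 (adjusted p = 0.823) and bli-1 of 0.20 (adjusted p = 0.805).

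Batch divided this comparison. In batch 1, with 1 library per genotype and so no test, the log2 difference of flp-17oe replicate 1 from N2 replicate 1 was −1.19 for sqt-1, −0.46 for sqt-2, −0.55 for rol-6 and −0.19 for rol-8. In batch 2 alone the fitted differences of the same genes were 5.10 (SE 0.98, edgeR adjusted p = 0.00262), 4.04 (SE 0.75, 0.00189), 4.57 (SE 0.89, 0.00276) and 4.06 (SE 0.70, 0.000939). For dpy-13 the difference was of like size in both, 2.55 between the batch 1 libraries and 2.28 in batch 2 (SE 0.84). Without flp-17oe replicate 1, the log2 differences of sqt-1 and rol-6 over both batches rose to 4.86 and 4.47. In that library flp-17 was at 226.5 CPM, the highest of the 5, bli-6 was also the highest of the 5 and dpy-13 was not the lowest.

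**Figure D2:**
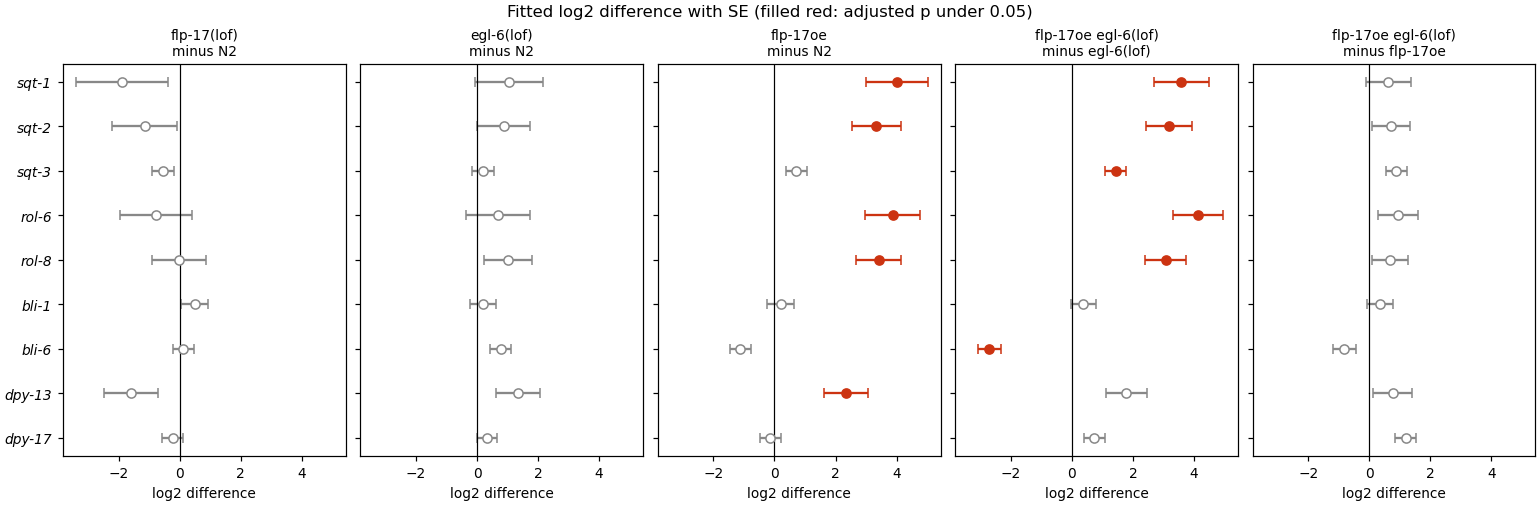
Fitted log2 differences of the 9 tested collagen genes in 5 genotype comparisons, with SE as bars. Filled red circles have an edgeR adjusted p under 0.05: 5 genes for flp-17oe minus N2, 6 for flp-17oe egl-6(lof) minus egl-6(lof), and none in the other 3 panels.

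The array was also carried by animals with the egl-6 mutation, which asks what array and sorting change there. In flp-17oe egl-6(lof) against egl-6(lof), sqt-1, sqt-2, sqt-3, rol-6 and rol-8 were higher and bli-6 was lower. Over all genes tested 6.02% were higher and 8.38% lower. The median log2 difference of the 9 genes was 1.79, beside 0.02 over all genes. The 6 calls were kept in each of the 25 fits that left out 1 library.

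For rol-6, egl-6(lof) libraries 1 to 5 held 0.446, 0.559, 0.0201, 0.252 and 0.147 CPM, and the double libraries held 0.876, 15.6, 1.05, 2.93 and 10.5. The groups did not overlap, and replicates 2 and 5 with the array stood far above replicates 1 and 3. The log2 difference was 4.13 (SE 0.83, edgeR adjusted p = 0.0013), ranging from 3.53 without egl-6(lof) replicate 4 to 4.79 without egl-6(lof) replicate 1.

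The values of sqt-1 were 1.04, 0.806, 0, 0.503 and 0.202 CPM in egl-6(lof) and 1.52, 15.3, 1.18, 3.90 and 13.2 CPM with the array, again without overlap. Its log2 difference was 3.59 (SE 0.91, edgeR adjusted p = 0.00811), and 4.31 without egl-6(lof) replicate 1. For rol-8, egl-6(lof) held 1.00, 1.12, 0.221, 0.570 and 0.441 CPM and the array libraries 1.53, 13.7, 1.13, 3.85 and 11.3, also without overlap. Its log2 difference was 3.08 (SE 0.67, edgeR adjusted p = 0.00258). Over all genes tested, 3.35% had groups without overlap toward higher values.

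The groups of sqt-2 overlapped, with 0.984, 0.572, 0.141, 0.436 and 0.202 CPM in egl-6(lof) and 1.04, 12.2, 0.761, 2.48 and 7.09 with the array. Replicate 3 of the array genotype lay under replicate 1 of egl-6(lof). The log2 difference was 3.17 (SE 0.75, edgeR adjusted p = 0.00441), falling to 2.52 without flp-17oe egl-6(lof) replicate 2 and rising to 3.92 without egl-6(lof) replicate 1. The collagen sqt-3 rose from 6.83, 12.7, 8.47, 12.7 and 11.5 CPM to 7.71, 43.0, 13.4, 24.6 and 62.1 (log2 difference 1.43, SE 0.35, edgeR adjusted p = 0.00614). Replicate 1 of sqt-3 lay within the egl-6(lof) range and the other 4 above it.

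Expression of bli-6 fell, from 6.83, 7.68, 5.74, 5.06 and 4.19 CPM in egl-6(lof) to 2.88, 0.117, 0.971, 0.755 and 0.718 CPM with the array. Every array library lay below every egl-6(lof) library, as in 4.84% of all genes tested. The log2 difference was −2.70 (SE 0.37, edgeR adjusted p = 5.24e-05), and it was negative in both batches, −1.24 between the batch 1 libraries and −3.18 in batch 2 (SE 0.39, adjusted p = 5.9e-06). In replicate 2 of the array genotype bli-6 was lowest of all 25 libraries, in the library where rol-6, sqt-1, sqt-2, rol-8 and dpy-13 were highest.

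The other 3 tested genes were not called in this comparison. They were dpy-13 (log2 difference 1.79, SE 0.67, edgeR adjusted p = 0.0801), dpy-17 (0.73, adjusted p = 0.178) and bli-1 (0.37, adjusted p = 0.69). With a replicate block in place of batch dpy-13 was called (1.67, edgeR adjusted p = 0.0141), although these genotypes did not pass the working rule for pairing by replicate number. In batch 1 the single-library log2 differences were small for the genes called higher, at 0.53 for sqt-1, 0.08 for sqt-2, 0.17 for sqt-3, 0.92 for rol-6 and 0.59 for rol-8. In batch 2 alone the same 5 genes were higher, by 4.36, 3.99, 1.65, 4.80 and 3.61 on the log2 scale. When only these 2 genotypes entered the fit, 2 genes were called higher instead of 5, and sqt-1, sqt-2 and sqt-3 had adjusted p of 0.0587, 0.0609 and 0.0743.

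Loss of the receptor gene within array animals was addressed by setting the double genotype beside flp-17oe. No member was called, against 1.18% of all genes tested higher and 0.219% lower. Means of 8 of the 9 genes were higher in the double genotype after fitting, with a median log2 difference of 0.72 beside 0 over all genes. At an unadjusted p under 0.05, 2 genes were higher (dpy-17 and sqt-3) and 1 lower (bli-6), and DESeq2 called 1 of them, dpy-17.

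The dumpy collagen dpy-17 had the largest such difference. It was at 6.69, 20.1, 5.94, 10.9 and 18.6 CPM in flp-17oe and at 12.0, 27.3, 19.8, 23.5 and 62.2 CPM in the double genotype. The double genotype was higher in each of the 5 same-numbered pairs, while the groups overlapped. The log2 difference was 1.20 (SE 0.34, edgeR adjusted p = 0.0923). Only these 2 genotypes passed the working rule for pairing by replicate number. With the replicate block dpy-17 was called higher (1.19, edgeR adjusted p = 0.0485), as it was by DESeq2 (1.20, adjusted p = 0.0492). Leaving out flp-17oe egl-6(lof) replicate 5 lowered the difference to 0.74.

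For sqt-3, flp-17oe held 5.92, 24.6, 8.43, 16.6 and 23.8 CPM, and the log2 difference to the double genotype was 0.89 (SE 0.34, edgeR adjusted p = 0.303). For bli-6 it was −0.81 (SE 0.38, adjusted p = 0.468). Neither passed the threshold after adjustment, and the groups overlapped for both genes, although sqt-3 was higher and bli-6 lower in the double genotype in each of the 5 same-numbered pairs.

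The interaction tested whether the array difference had another size with egl-6(lof) than without. No member was called by edgeR or DESeq2, beside 0.00683% of all genes higher and 0.082% lower. The largest term was that of bli-6, at −1.58 on the log2 scale (SE 0.51, unadjusted p = 0.00471, edgeR adjusted p = 0.437), the only member with an unadjusted p under 0.05. The other 8 had adjusted p from 0.773 to 0.985. The 2 array comparisons share no library, though they share the fitted spread and the array ssrEx1193. Deviations of same-numbered libraries of the 2 array genotypes also correlated (0.133 to 0.573), so the comparisons are not independent repeats. Side by side, their log2 differences were 4.01 and 3.59 for sqt-1 and 3.33 and 3.17 for sqt-2. For rol-6 they were 3.87 and 4.13, and for rol-8 3.41 and 3.08.

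Loss of flp-17 or egl-6 alone gave no call among these collagens. In flp-17(lof) against N2, where 0.041% of all genes tested were higher and 0.0342% lower, 0 of 9 were called by edgeR or DESeq2 and 0 had an unadjusted p under 0.05. The fitted log2 differences ran from −1.89 for sqt-1 to 0.49 for bli-1, with 7 of 9 negative. In flp-17(lof) dpy-13 was at 0.644, 0.375, 0.279, 0.413 and 0.430 CPM, which lay within the N2 range or just under it. This comparison, egl-6(lof) against N2 and flp-17oe against N2 share the N2 libraries. The fitted values of sqt-1 rest on few reads, since 3 of 5 flp-17(lof) libraries held none.

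In egl-6(lof) against N2, 0 of 9 members were called by edgeR or DESeq2, while 0.424% of all genes tested were higher and 0.0615% lower. All 9 fitted differences were positive, from 0.19 to 1.33 on the log2 scale, with a median of 0.77. The members are correlated, so these are not 9 separate observations. Only bli-6 had an unadjusted p under 0.05, with a log2 difference of 0.77 (SE 0.33, unadjusted p = 0.0307, edgeR adjusted p = 0.508). The largest difference was that of dpy-13, at 1.33 (SE 0.72, adjusted p = 0.8), where egl-6(lof) libraries ran from 0.321 to 6.51 CPM.

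Expression of bli-2, which failed the count filter, was near the limit of detection in all genotypes, with 0 to 64 reads per library. It was at 0.0237, 0.106, 0.135, 0.019 and 0 CPM in N2, and no read was counted in 3 of 5 flp-17oe libraries. Its highest value, 0.951 CPM, was in flp-17oe egl-6(lof) replicate 1, the batch 1 library, and the other 4 libraries of that genotype held at most 0.0389 CPM. Fitted without the filter among 22410 genes, bli-2 had edgeR adjusted p from 0.56 to 1 in the 6 comparisons of genotypes. The other strut collagen at low level, bli-1, had the same library highest, at 1.16 CPM against 0.117 to 0.281 in the remaining double libraries. Neither gene was called in any genotype comparison, and the few reads leave wide errors, with SEs of 1.11 to 2.1 on the log2 scale for bli-2.

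A single test of any difference among the 5 genotypes called 8 of the 9 members, beside 21% of all genes tested. The smallest adjusted p by edgeR's quasi-likelihood test was that of rol-6 (3.94e-05), followed by bli-6 (6.52e-05), rol-8 (8.63e-05) and sqt-2 (9.92e-05). For dpy-17 the adjusted p was 0.0244, and bli-1 was not called (0.777).

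Between batches, sqt-3 was higher in batch 2 (log2 difference 1.02, SE 0.31, edgeR adjusted p = 0.0413) and bli-1 and bli-6 were lower (−1.08, SE 0.32, adjusted p = 0.035, and −1.27, SE 0.26, adjusted p = 0.00571). Over all genes tested 3.23% were higher and 6.64% lower. In flp-17(lof), bli-6 was at 8.32 CPM in batch 1 and at 2.80, 3.63, 3.01 and 3.36 CPM in batch 2. All 3 calls were lost without flp-17oe egl-6(lof) replicate 1, where the differences became 0.76 for sqt-3 (adjusted p = 0.188), −0.56 for bli-1 (0.338) and −1.03 for bli-6 (0.056). The call of sqt-3 was kept in 14 of 25 fits that left out 1 library. Batch 1 holds a single library per genotype, so batch and the state of those 5 samples cannot be told apart.

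**Figure D3:**
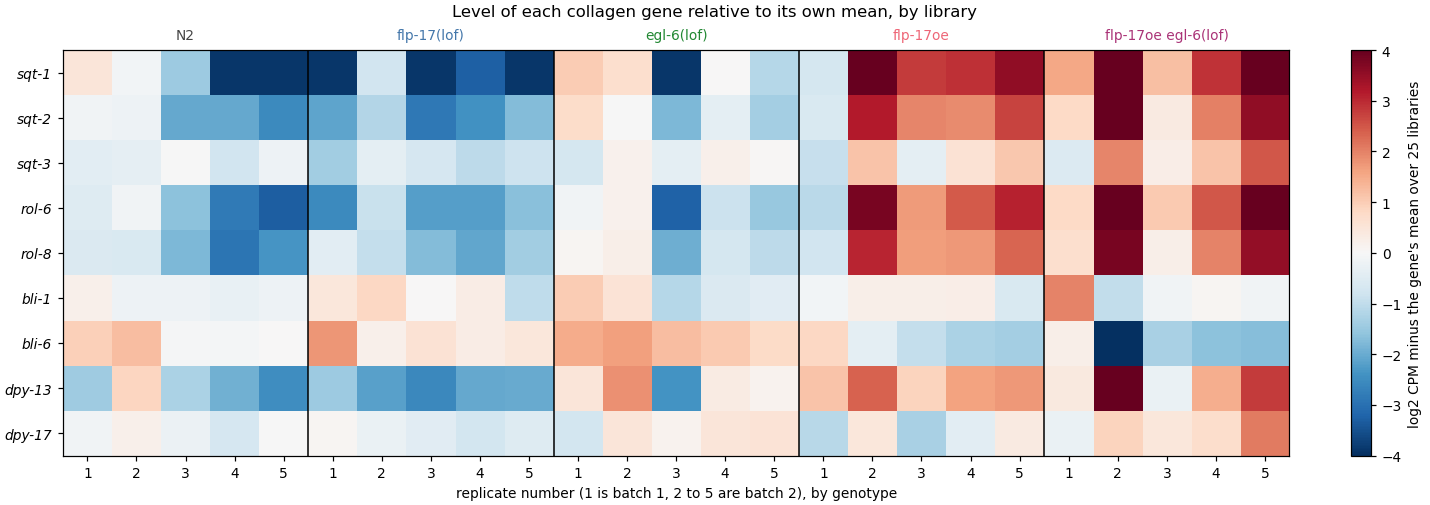
Log2 CPM (prior count 2) of the 9 tested collagen genes in every library, minus each gene's mean over the 25 libraries, with columns ordered by genotype and replicate number. Colours are limited to 4 units either way. Among array libraries, replicates 2 and 5 are the darkest red for sqt-1, sqt-2, rol-6 and rol-8, and bli-6 shows the opposite colours.

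Levels were variable among replicates, in the array genotypes and in others. Between the lowest and the highest library, rol-6 differed 33.9-fold within flp-17oe and 17.8-fold among the double libraries, and sqt-1 differed 31.2-fold and 12.9-fold. At lower levels, rol-6 also differed 25.3-fold within N2 and 27.8-fold within egl-6(lof), and 4.66-fold within flp-17(lof). For sqt-1 each genotype without the array had a lowest library at 0 CPM, so no such ratio exists there. Replicates 2 and 5 were the highest for sqt-1, sqt-2, rol-6 and rol-8 in both array genotypes. Replicate 1 was the lowest in flp-17oe, and replicates 1 and 3 were the lowest 2 of the double genotype. In bulk RNA of whole animals, a change in the share of cells or animals that express a gene cannot be told apart from a change per cell.

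The make-up of the group shifted with these levels. Of the summed CPM per kb of the 10 genes, dpy-17 held 50.2% ± 4.12 (SD, n = 5) in N2, 25.5% ± 3.79 in flp-17oe and 36.8% ± 12.5 in the double genotype. The share of bli-6 was 14.5% ± 3.89, 6.6% ± 8.53 and 3.05% ± 4.29 in the same order. Replicate 1 held much of the latter values, at 21.7% in flp-17oe and 10.5% in the double genotype, and over batch 2 alone the shares were 13.4%, 2.83% and 1.2%. Mean shares of sqt-1 (0.934%, 9.15% and 6.8%), rol-8 (1.22%, 7.64% and 6.03%) and rol-6 (0.653%, 5.84% and 5.42%) were larger in both array genotypes. The batch 1 libraries alone did not show this for flp-17oe. There the shares were 2.68%, 1.4% and 5.26% for sqt-1, 2.22%, 2.46% and 5.08% for rol-8, and 1.2%, 0.986% and 2.92% for rol-6. For sqt-3 the mean shares were 26.8%, 24.8% and 25.7%. Levels per kb in the double genotype ran from 26.1 ± 17.5 CPM for dpy-17 and 21.2 ± 15.7 for sqt-3 down to 1.09 ± 1.06 for bli-6, so that the mean of bli-6 was below those of sqt-1, sqt-2, rol-6, rol-8 and dpy-13, all of which it exceeded in N2. In double replicate 1, the batch 1 library, bli-6 at 2.88 CPM was still above these 5 genes.

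Several members varied together. After each genotype's mean was subtracted, the log2 CPM of sqt-2 and rol-6 correlated with r = 0.95 over the 25 libraries, sqt-1 and rol-6 with 0.94, sqt-2 and rol-8 with 0.94 and rol-6 and rol-8 with 0.93. The coefficients of dpy-13 with these 4 genes were 0.72 to 0.80. Between sqt-3 and dpy-17 r was 0.83. Both also correlated with the same 4 genes, sqt-3 at 0.60 to 0.74 and dpy-17 at 0.42 to 0.61. The strut collagen bli-6 ran against sqt-3 (r = −0.65) and rol-6 (r = −0.43) and with bli-1 (r = 0.57). Batch was not subtracted, and sqt-3, bli-1 and bli-6 differed between batches. These coefficients describe libraries that share their RNA, depth and scaling factor across genes, so no test is attached.

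**Figure D4:**
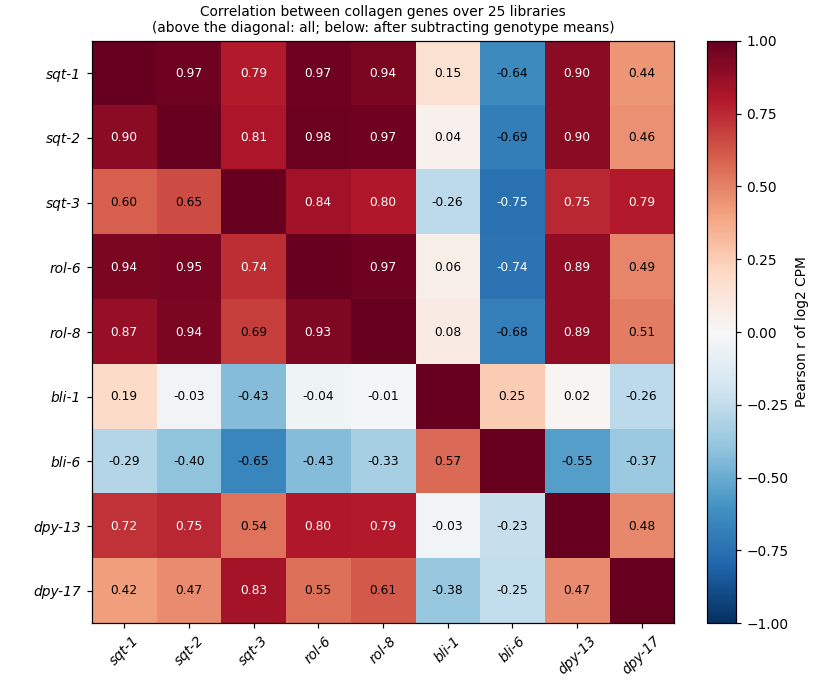
Pearson correlation of log2 CPM between the 9 tested collagen genes over 25 libraries. Values above the diagonal use all libraries as they are and values below it follow subtraction of genotype means. The block of sqt-1, sqt-2, rol-6 and rol-8 lies at 0.87 or more above and below the diagonal, and bli-6 is negative with every gene but bli-1.

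For 6 of the 9 tested members, 6 to 9 of the 10 genes most like them over the 25 libraries had collagen names. For sqt-3, dpy-17 and bli-1 none had. The counts include other members, 3 each for sqt-1, sqt-2, rol-6, rol-8 and dpy-13 and 0 for bli-6. The share of collagen names over all genes tested is not given here. For sqt-1, sqt-2 and rol-6 the closest gene outside the group was col-17 (Pearson r = 0.958, 0.968 and 0.966), for rol-8 it was col-90 (0.964), and for dpy-13 it was the dumpy collagen dpy-4 (0.988). For bli-6 the closest was col-129 (0.955), and 9 of its 10 closest genes had collagen names. The gene closest to sqt-3 was F30H5.3 (0.951) and that closest to dpy-17 was F31D4.5 (0.878). For bli-1 the nearest, the aspartic protease gene asp-1, reached only 0.696. These partners were chosen for their likeness over the same libraries, so their own differences between genotypes are not given.

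Other genes of the cuticle gave a reference for these values. All 6 annular furrow collagens (dpy-2, dpy-3, dpy-7, dpy-8, dpy-9 and dpy-10) were higher in flp-17oe than in N2 and in the double genotype than in egl-6(lof), with median log2 differences of 2.67 and 2.39. The furrow collagen dpy-8, for example, differed by 3.64 from N2 (SE 0.58, edgeR adjusted p = 0.000302). Of 5 further body-shape collagens, lon-3 was higher in both comparisons (3.64, SE 0.80, adjusted p = 0.0055, and 2.93, SE 0.68, adjusted p = 0.00412). A second, rol-1, was lower in the double genotype than in egl-6(lof), from 2.36 ± 2.04 to 0.0264 ± 0.0291 CPM (SD, n = 5, edgeR adjusted p = 0.00538). None of 11 genes for collagen processing and cross-linking, among them the prolyl hydroxylase gene dpy-18 and the protease gene dpy-31, was called by edgeR or DESeq2 in any genotype comparison. At an unadjusted p under 0.05, 1 differed in egl-6(lof) and 1 in flp-17oe against N2, 3 between the double genotype and egl-6(lof), and 0 elsewhere. Their median log2 differences lay between −0.06 and 0.08.

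Some markers of other stages and cells, among them most larval molting markers, moved with these collagens. Their part in the differences was not tested. Of 13 larval molting markers, 11 were higher in flp-17oe than in N2 and 12 higher in the double genotype than in egl-6(lof), with median log2 differences of 1.42 and 1.25. The summed molting level was 56.3 to 94.2 CPM in N2. Most of that was nhr-23, at 50.6 CPM on average in N2, 53.2 in flp-17oe and 46.1 in the double genotype. The sum was 47.1 to 79.7 CPM in the flp-17 mutant and 74.1 to 94.3 in the egl-6 mutant. It was 91.9 to 151 CPM where the array was alone and 68.8 to 256 in the double genotype. No molting marker was at 0 in any library. Of 6 late embryo and hatching markers 2, lpr-3 and sym-1, were higher in each of these comparisons, with mean levels of 0.772 and 2.67 CPM in N2 and 5.63 and 10.2 CPM in flp-17oe. The hatching protease gene hch-1 was higher in the double genotype than in flp-17oe (log2 difference 1.67, SE 0.40, edgeR adjusted p = 0.0366). The summed level of this list was 344 to 514 CPM in N2, 423 to 505 with the array alone and 355 to 522 in the double genotype, nearly all of it egg-6 (436 CPM on average in N2). Of 6 early embryo markers 5 were tested and 0 called by edgeR in any genotype comparison, although DESeq2 called 1 between the double genotype and flp-17oe, where 4 had p under 0.05 before adjustment. Of 5 matched epidermal markers 1 was higher in each array comparison, nhr-25 against N2 and elt-1 against egl-6(lof). The 5 adult markers, vitellogenins and the adult collagens col-19 and col-7, summed to between 52000 and 74900 CPM in every library. Nearly all of this was vitellogenin (vit-2 at 20400, vit-5 at 13800 and vit-6 at 23500 CPM on average in N2). Both col-19 and col-7 were lower in the double genotype than in egl-6(lof). In flp-17oe against N2 edgeR called none of the 5, DESeq2 called 1, and 2 had p under 0.05 before adjustment. There col-19 averaged 1540 CPM in N2 and 965 in flp-17oe.

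The sperm markers moved in the direction of bli-6 in some comparisons. Of 10, 6 were higher in egl-6(lof) than in N2 (median log2 difference 2.10), 8 were lower in flp-17oe egl-6(lof) than in egl-6(lof) (median −3.05), and 8 were lower in batch 2 than in batch 1 (median −1.86). None was called by edgeR or DESeq2 in flp-17oe against N2, where 2 had p under 0.05 before adjustment (median −0.70). Their summed level was 8.01 to 64.3 CPM in N2 and 13.9 to 22.9 in the flp-17 mutant. It was 33.3 to 68.8 CPM in the egl-6 mutant, 7.95 to 30.8 with the array alone and 9.84 to 29.9 in the double genotype, with no marker at 0. The sum was highest in replicate 1 of N2, of both array genotypes and, only just, of flp-17(lof) (22.9 CPM against 22.7 in replicate 4). In egl-6(lof) replicate 1 was lowest, at 33.3 CPM. Between the double genotype and flp-17oe, 1 sperm marker was higher (median of the list −0.19), where bli-6 pointed lower. Genotype means, but not batch, were subtracted before correlation over the 25 libraries. The log2 CPM of bli-6 then correlated with the log2 summed CPM of the sperm list at r = 0.60. Both bli-6 and 8 of the sperm markers were lower in batch 2. With the molting list and the late embryo list the coefficients of bli-6 were −0.63 each. The molting sum was mostly nhr-23 in N2, and the late embryo sum was nearly all egg-6. The log2 CPM of sqt-3 correlated with the molting list at 0.85. That of rol-6 correlated with the furrow collagens at 0.74 and the molting list at 0.52. Whether the sperm, molting or late embryo markers have a part in the collagen values was not tested.

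**Figure D5:**
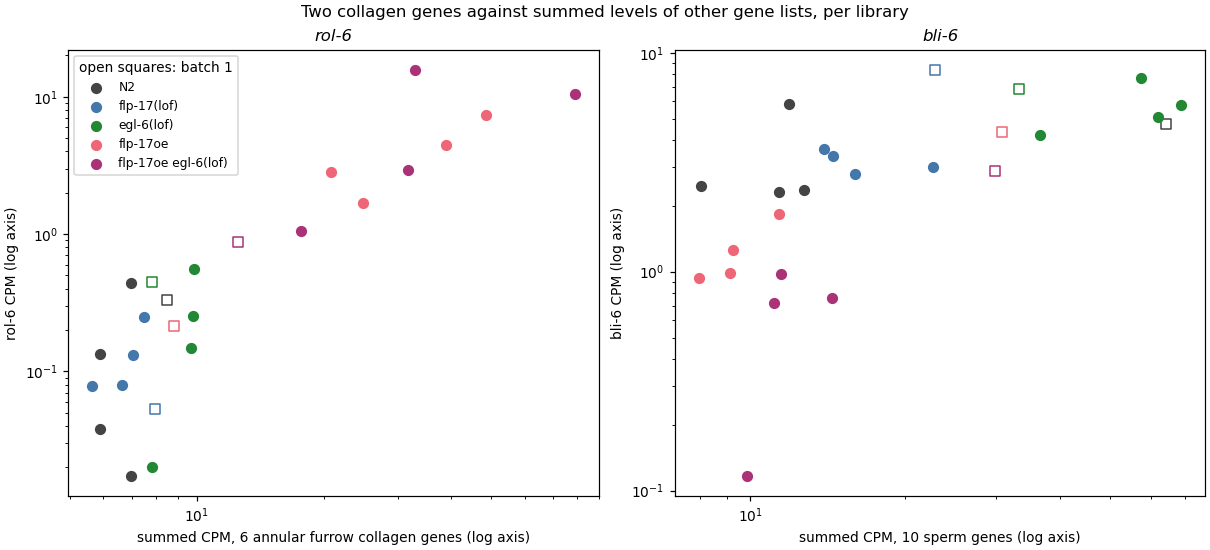
CPM of rol-6 against the summed CPM of 6 annular furrow collagens (left), and of bli-6 against the summed CPM of 10 sperm genes (right), per library on log axes. Colours are genotypes and open squares are batch 1. On the left the furrow collagens reach 78.9 CPM in flp-17oe egl-6(lof) replicate 5, with rol-6 at 10.5 CPM. The highest rol-6, 15.6 CPM, is in replicate 2 of that genotype, with furrow collagens at 32.9 CPM. On the right the batch 1 squares lie at 22.9 CPM of sperm genes or more.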

How the data were processed

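Counts per gene for 25 libraries were deposited as raw whole numbers, per the labels and the values. Reads had been aligned with STAR 2.7.11b to ce11, per the submitters' processing notes. How reads were assigned to genes, with which annotation and strand rule, is not given in the sources used here. No library was left out.

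A count filter (filterByExpr with genotype as group, minimum 10 after depth scaling and 15 in total) left 14634 of 42532 genes. A robust quasi-likelihood model with genotype and batch terms was fitted with edgeR 4.0.16 (limma 3.58.1, R 4.3.3) and TMM factors. P-values were Benjamini-Hochberg adjusted over all genes tested in a comparison. CPM values use TMM-scaled library sizes, and log2 CPM a prior count of 2. The median log2 difference over all genes lay between −0.01 and 0.02. Between any 2 replicates the chi-square per gene was at least 5.54, so no replicate repeated another.

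All members are named in every comparison, and from other lists up to 4 called genes per comparison could be named. The members and lists were chosen with earlier results of these data known. Positions come from an Ensembl annotation of ce11. Of the epidermal markers, elt-5 matched no row. Deviations of same-numbered libraries correlated above 0.1 in all 5 pairs only between the 2 array genotypes (0.133 to 0.573), so only these passed the rule for pairing. The main fit used batch and did not pair them, and pairing entered only through the replicate block, an alternative. The cut of 0.1 is a working rule, and batch was not removed before it. N2 with flp-17oe came near it, with 4 pairs above 0.1 and a range of 0.0794 to 0.656. Alternatives were other size factors, DESeq2 1.42.0, 2 other count filters, no batch term, a replicate block, batch 2 alone, the compared genotypes alone and each library left out.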

Additional observations from a re-analysis of the deposited data

Results flagged for a closer look

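In 8 of 50 groups of 5 libraries, 1 library lay so far above the rest that its gap passed Dixon's 95% critical value of 0.71. Chance flags about 1 group in 20 if values are normally distributed and groups independent. These are CPM values, some near 0, of genes that vary together, so the 8 cannot be set against that rate. In all 8 the flagged library was the highest. In flp-17(lof) replicate 2, sqt-1 was at 0.275 CPM with the next library at 0.0197, and bli-2 was at 0.275 CPM with the next at 0.0537. In flp-17oe egl-6(lof) replicate 1, bli-1 was at 1.16 CPM with the next at 0.281, and bli-2 was at 0.951 CPM with the next at 0.0389. For bli-6, flp-17(lof) replicate 1 was at 8.32 CPM above a next value of 3.63, and flp-17oe replicate 1 at 4.34 CPM above 1.83. In N2, replicate 1 held bli-1 at 0.308 CPM above 0.228, and replicate 2 held dpy-13 at 3.37 CPM above 0.74. Of the 8 values, 5 belong to replicate 1, the batch 1 sample. The values of bli-1 and bli-2 rest on at most 78 reads.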

How the results depend on the processing

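Of 2040 single-gene values recomputed under the alternatives, 1932 kept their direction and side of the threshold, 42 lost a call and 15 gained one. The other 51 changed sign without being called in either setting, between −0.42 and 0.66 on the log2 scale, and no called value changed sign. For flp-17oe minus N2, members called lower went from 0 to 1 (bli-6) by DESeq2 and in batch 2 alone, and to 0 to 1 on leaving out 1 library. Members called higher were 3 to 5 on leaving out 1 library, with 3 without N2 replicate 4 or N2 replicate 5. For flp-17oe egl-6(lof) minus flp-17oe, members called higher went from 0 to 1 (dpy-17) by DESeq2 and with the replicate block, and were 0 to 1 on leaving out 1 library. The replicate block otherwise changed 1 call, of dpy-13. For flp-17oe egl-6(lof) minus egl-6(lof), members called higher went from 5 to 2 in the compared genotypes alone. Between batches, members called higher went from 1 to 0 without the count filter, and on leaving out 1 library 0 to 1 were higher and 0 to 2 lower. The cause of these shifts was not tested. Depth limits bli-1, bli-2 and, outside the array genotypes, sqt-1 and rol-6, which held few or no reads in some libraries.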
